A study of Mus musculus with 12 samples.

Results

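Reactive astrocyte genes are the genes that astrocytes, the star-shaped support cells of the brain, switch on after injury, inflammation or disease. The list held 33 mouse genes: 12 pan-reactive genes seen in most forms of reactivity, 7 genes of the A1-type signature, 11 genes of the A2-type signature and 3 genes of the STAT3 axis. A gene was taken as a member when the RefSeq transcript accessions of its row mapped to one of the listed symbols. All 33 members had 1 row each among the 23382 gene rows, and 29 of them were among the 15802 genes that passed the filter on low counts and were tested.

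The RNA was total RNA of mouse hippocampus, on a C57BL/6 background, in 12 libraries forming 4 groups of 3. The groups were DISC1 mutant mice (aDN-DISC1) given THC (delta-9-tetrahydrocannabinol, the cannabis compound that causes most of its psychoactive effect), DISC1 mutant mice given vehicle, control mice given THC, and control mice given vehicle. Control libraries were placed by their titles, because no genotype tag is attached to them. No dose, age, sex, litter or THC schedule is given, and the series title places the exposure in adolescence. DISC1 is a scaffold protein, and aDN-DISC1 is published as a line in which astrocytes express a truncated human DISC1 through an inducible system driven by a Gfap promoter; the labels do not state the promoter, and Gfap is itself a member. The question of the series is whether THC and the mutation act together, so the groups were compared by genotype, by treatment and by the interaction of both.

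In published work the pan-reactive genes accompany most insults, the A1-type genes were described after inflammatory stimulation with lipopolysaccharide, and the A2-type genes after ischemia. Several of them are targets of STAT3, a transcription factor that cytokines of the interleukin 6 family activate through the shared receptor gp130, with SOCS3 as the feedback inhibitor. Several members are also made outside astrocytes: Vim in blood vessels, meninges and ependyma, Srgn in endothelium and microglia, Cd14 in microglia, and Fbln5 in vessel walls and connective tissue. In RNA from whole hippocampus, a different number of cells of a type and a different amount of RNA per cell cannot be told apart.

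Total expected counts were 33165903 to 41389957 per library. Levels below are depth-scaled counts, per 1e+06 counts of a library (CPM). The library size used was the total over the genes that passed the filter, multiplied by the TMM scaling factor of the library. Means are given with SD over 3 libraries, and log2 fold changes come from the quasi-likelihood test of edgeR with all 12 libraries, with SE and with p-values adjusted over all tested genes by the Benjamini-Hochberg method (threshold 0.05). The labels name 3 samples per group without saying that they are separate mice, so the spread behind each p-value is that between libraries and may be technical. Vehicle libraries carry the numbers 6 to 11 in the labels and THC libraries 1 to 5 and 12, so library order and treatment cannot be told apart. Markers of astrocytes were present throughout, with 14 of 14 tested and a summed level of 7190 to 8762 CPM. Markers of tissues next to the hippocampus differed between libraries. The summed level of 14 choroid plexus markers was 94.8 to 7062 CPM in mutant THC, 4042 to 11262 CPM in mutant vehicle, 101 to 5881 CPM in control THC and 66.8 to 142 CPM in control vehicle. That of 10 meningeal fibroblast markers was 117 to 264, 257 to 353, 214 to 221 and 129 to 160 CPM in the same groups. None of these markers was at 0 in any library. The striatal gene Drd2 was at 52.1 CPM in the library mutant THC 3 and at 4.57 CPM in mutant vehicle 3, against 1.62 CPM or less in the other 10 libraries.

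The members spanned a wide range of abundance. Divided by the length of the longest matched transcript, the level of Gfap was the highest of the 33, at 163 CPM per kilobase. Vim followed at 22.9, S100a10 at 22.5, Serpina3n at 21.4 and H2-T23 at 15.9 CPM per kilobase. At the low end, Slc10a6, a steroid sulfate transporter, had 0.0142 CPM per kilobase. Slc10a6, the transglutaminase gene Tgm1, the glucuronosyltransferase gene Ugt1a1 and the cytokine gene Clcf1 had 0 to 7 counts per library and were not tested. Lcn2, which encodes a siderophore-binding secreted protein and is a widely used marker of strong reactivity, had only 1 to 31 counts per library. It passed the filter through 4 libraries, 2 of them outside mutant vehicle, its highest group. Within groups the coefficient of variation had a median of 19.0% over the 29 tested members. It was under 15% for 11 of them, with H2-T23 lowest at 6.44%, and over 30% for Steap4 at 57.8%, Timp1 at 57.6%, Lcn2 at 55.6% and Sphk1 at 46.9%.

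RefSeq promoter windows of GRCm38.p6, 250 bases before to 50 after a transcription start, were found for 27 of the 33 members, giving 35 windows. They were searched for the STAT motif TTCNNNGAA, which reads the same on both strands, and for the NF-kB consensus on both strands. The STAT motif was in 7 of the 35 windows (20%) and in 8.29% of all 32807 windows of that length. Windows of a gene can overlap and are not independent. The same STAT site of Sphk1 was counted in overlapping windows, so the 7 windows came from 6 members. The NF-kB consensus was in 6 of 35 (17.1%) and in 8.46% of all windows. The STAT-like motif with 4 bases between TTC and GAA, also the same on both strands, was in 4 of 35 (11.4%) and in 6.94% of all. TATAAA, searched on the strand of the gene, was in 3 of 35 (8.57%) and in 8.32% of all. These shares describe letters in the windows and are not evidence of binding. Members with the STAT motif were Emp1, Gfap, Socs3, Sphk1, Steap4 and Tgm1, and those with the NF-kB consensus were Ptx3, Sphk1, Steap4, Tm4sf1 and Vim.

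The windows of 4 members are shown 5′ to 3′ because these genes recur below. Vim and Steap4 had the smallest edgeR p-values between mutant and control vehicle, Gfap is the classical reactive marker, and Socs3 is the feedback arm of STAT3. A link between the motifs and the levels was not tested. Capitals mark the STAT and NF-kB matches. In Vim (chr2:13574061-13574360, plus strand) NF-kB matches began 223, 142 and 141 bases before the start, the last pair overlapping, and TATAAA began 32 bases before it. In Steap4 (chr5:7960222-7960521, plus strand) NF-kB matches began 250 and 226 bases before the start and a STAT match 116 bases before it. In Gfap (chr11:102897151-102897450, minus strand) the STAT match began 2 bases before the start, and in Socs3 (chr11:117969317-117969616, minus strand) 154 bases before it.
Vim: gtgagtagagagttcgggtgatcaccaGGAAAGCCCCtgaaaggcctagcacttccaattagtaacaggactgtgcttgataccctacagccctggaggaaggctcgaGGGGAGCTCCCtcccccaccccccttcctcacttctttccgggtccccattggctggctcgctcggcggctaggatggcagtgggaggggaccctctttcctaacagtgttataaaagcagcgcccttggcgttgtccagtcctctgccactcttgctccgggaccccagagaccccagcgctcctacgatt
Steap4: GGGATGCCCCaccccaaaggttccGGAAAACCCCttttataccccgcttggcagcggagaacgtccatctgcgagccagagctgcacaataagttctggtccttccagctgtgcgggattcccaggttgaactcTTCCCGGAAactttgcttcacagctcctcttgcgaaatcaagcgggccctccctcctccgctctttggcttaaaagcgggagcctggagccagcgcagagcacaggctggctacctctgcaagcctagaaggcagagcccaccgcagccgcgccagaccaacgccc
Gfap: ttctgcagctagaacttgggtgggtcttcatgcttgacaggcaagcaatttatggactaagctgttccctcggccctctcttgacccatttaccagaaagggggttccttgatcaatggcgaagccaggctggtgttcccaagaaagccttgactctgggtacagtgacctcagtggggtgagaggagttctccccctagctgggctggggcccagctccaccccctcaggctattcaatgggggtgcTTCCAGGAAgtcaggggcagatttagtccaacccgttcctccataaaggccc
Socs3: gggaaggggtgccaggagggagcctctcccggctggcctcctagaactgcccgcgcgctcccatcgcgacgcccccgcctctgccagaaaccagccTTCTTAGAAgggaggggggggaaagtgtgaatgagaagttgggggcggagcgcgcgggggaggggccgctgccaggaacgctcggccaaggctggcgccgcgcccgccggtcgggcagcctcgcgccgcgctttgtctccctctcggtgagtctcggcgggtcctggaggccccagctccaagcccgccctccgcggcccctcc

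No member passed the threshold in any of the 6 comparisons under edgeR with all 12 libraries, nor under limma-voom. Background was as sparse, since 0.00633% of all tested genes (1 gene, no member) passed between mutant and control vehicle, between mutant and control THC, and between mutant THC and control vehicle, and 0% in the other comparisons. With DESeq2, 5 members passed between mutant and control vehicle, beside 5.10% of all genes, and 1 passed in the interaction, beside 0.216%. In the other 4 comparisons DESeq2 passed 0 members. The comparisons share groups: both vehicle groups and both THC groups enter more than 1 contrast, so the values of a member in different comparisons are not independent.

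**Figure D1:**
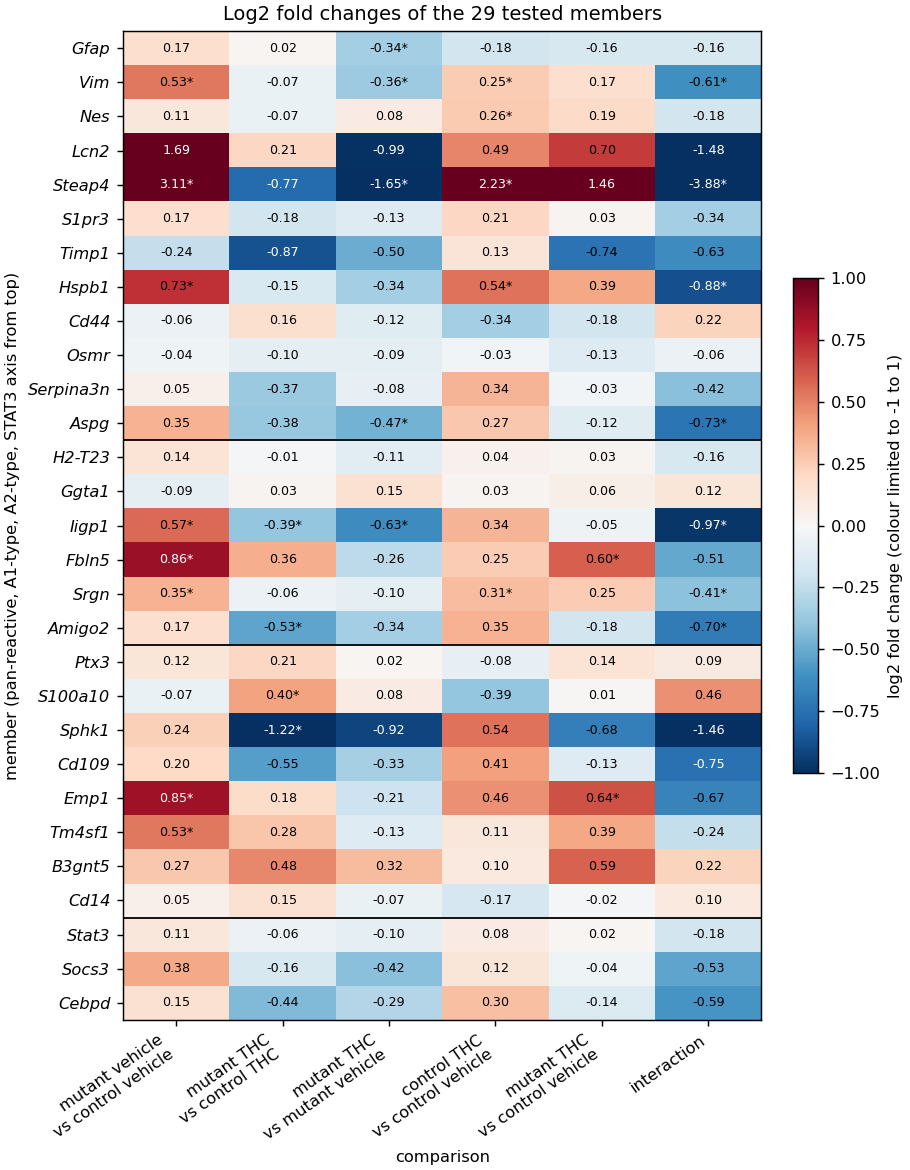
Log2 fold changes of the 29 tested members (rows, in blocks of pan-reactive, A1-type, A2-type and STAT3 axis genes from the top) in the 6 comparisons (columns), printed in each cell, with colour limited to -1 to 1. A star marks an unadjusted p under 0.05; none passed after adjustment, and the column of mutant vehicle against control vehicle is mostly above 0 while the interaction column is mostly below 0.

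Mutant vehicle was compared with control vehicle for the genotype difference without THC. Of the 29 tested members, 24 had a log2 fold change above 0, with a median of 0.17 against -0.01 over all tested genes. These 24 include Lcn2, which passed the filter on low counts only with the help of mutant vehicle, its highest group. Its place above 0 is therefore no support for the lean. The same limit applies to Lcn2 in every later count that involves mutant vehicle. For 10 members (34.5%) every mutant vehicle library was above every control vehicle library, beside 15.3% of all tested genes, and for 0 members every library was below, beside 12.7%. An unadjusted p under 0.05 was reached by 8 members with higher levels (27.6%, beside 11.2% of all genes) and by 0 with lower levels (beside 6.63%). The 10 members that did not overlap were Vim, Steap4, Fbln5, Iigp1, Hspb1, Emp1, Srgn, Tm4sf1, H2-T23 and Socs3.

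Vim encodes vimentin, an intermediate filament protein of reactive astrocytes and of many mesenchymal cells. It was at 62.3, 54.3 and 66.7 CPM in mutant vehicle, against 48.8, 38.8 and 39.1 CPM in control vehicle. In mice given THC it was at 49.7, 49.6 and 43.4 CPM in mutants and at 48, 53.1 and 49.1 CPM in controls. The mutant vehicle libraries were the 3 highest of the 12, and under THC the genotypes overlapped. Between mutant and control vehicle the log2 fold change of Vim was 0.53 ± 0.10 (SE, edgeR adjusted p = 0.16). DESeq2 gave the same size with an adjusted p of 0.0026, among 788 genes past the threshold (5.10% of those tested, 4.09% higher). The edgeR fit restricted to these 6 libraries gave 0.54 ± 0.11 with an adjusted p of 0.045, among 523 genes (3.37%, 3.20% higher). Over all alternatives tried, the adjusted p of Vim ran from 0.0026 to 0.99.

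The other filament genes of the astrocyte network overlapped between these groups. Gfap, the main astrocyte filament gene, had 551, 484 and 463 CPM in mutant vehicle, against 471, 443 and 414 CPM in control vehicle. Its log2 fold change was 0.17 ± 0.15 (SE, edgeR adjusted p = 0.57). Nes, which encodes nestin, a filament of neural progenitors that reactive astrocytes express again, had 13.9, 13.5 and 15.2 CPM in mutant vehicle and 13.8, 11.5 and 14.1 CPM in control vehicle. Its groups overlapped too (0.11 ± 0.10, edgeR adjusted p = 0.62).

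**Figure D2:**
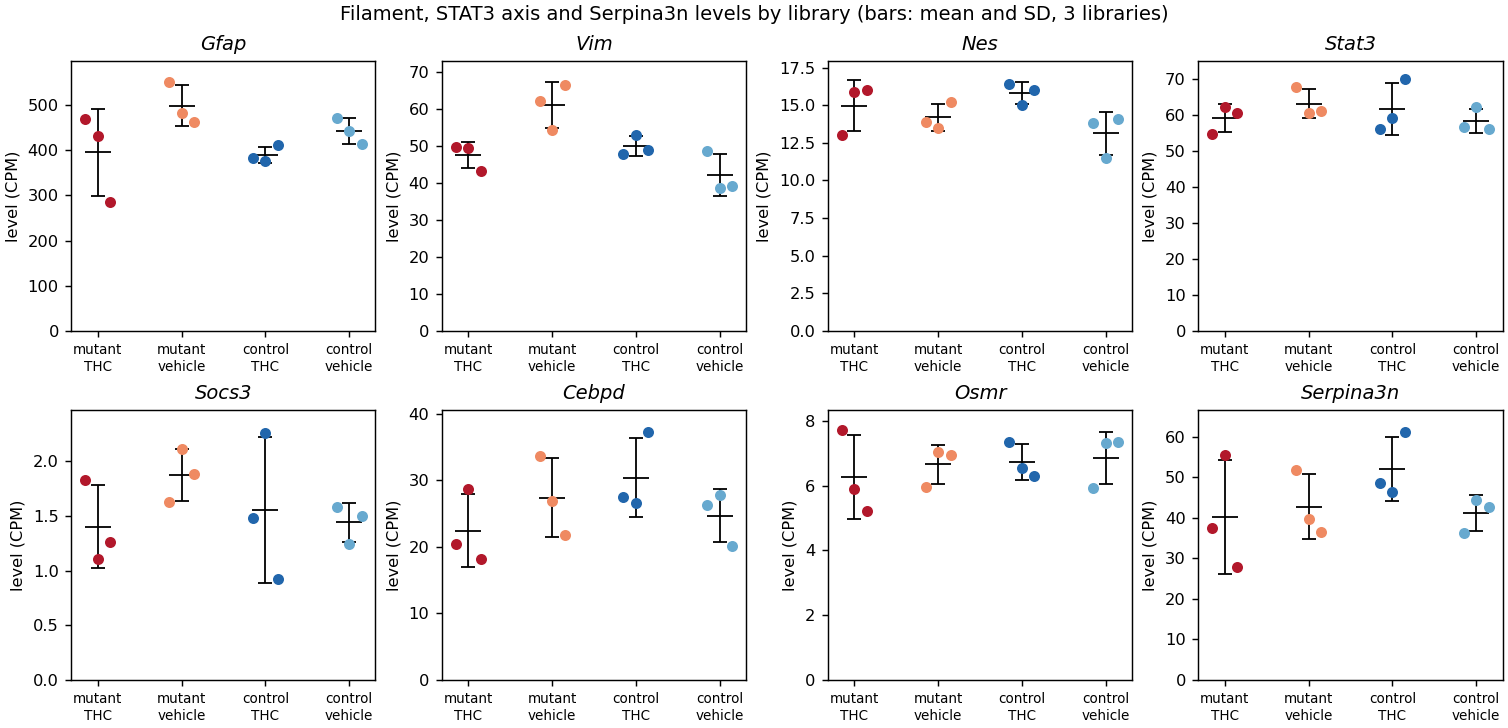
Levels (CPM, linear axis from 0) of the filament genes Gfap, Vim and Nes, of Stat3, Socs3, Cebpd and Osmr, and of Serpina3n in each of the 12 libraries; points are libraries, and the bar gives the mean and SD of the 3 libraries of a group. Vim is at 54.3 to 66.7 CPM in mutant vehicle, above the other 9 libraries, and Gfap is lowest, at 285 CPM, in the library mutant THC 3.

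Steap4, a metalloreductase gene of the pan-reactive group, had the largest log2 fold change among the tested members in this comparison. It was at 1.58, 2.00 and 2.87 CPM in mutant vehicle, against 0.211, 0.269 and 0.258 CPM in control vehicle, which were 8 to 10 counts per control library. Every mutant vehicle library was above every control vehicle library (3.11 ± 0.69, SE, edgeR adjusted p = 0.16). Across the series Steap4 stood at 0.811 to 2.87 CPM in the 6 libraries where the choroid plexus gene Ttr was at 2857 CPM or more, and at 0.211 to 0.533 CPM in the 6 where Ttr was at 84.4 CPM or less. With the choroid plexus score of each library as a covariate the log2 fold change of Steap4 was 0.93 ± 0.41. That score was higher in every mutant vehicle library than in every control vehicle library, so genotype and score cannot be fully told apart here. Steap4 passed under DESeq2 (adjusted p = 0.0028) and in the edgeR fit of the 6 vehicle libraries alone (adjusted p = 0.010), with a range of 0.0028 to 0.99 over all alternatives.

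Hspb1, which encodes the small heat shock protein HSP27, was at 7.90, 5.51 and 7.86 CPM in mutant vehicle, against 4.55, 3.28 and 4.99 CPM in control vehicle. The groups did not overlap (0.73 ± 0.21, SE, edgeR adjusted p = 0.16), and Hspb1 was among the 5 members past the threshold under DESeq2. The remaining pan-reactive members gave smaller counts or smaller differences. The receptor gene S1pr3, Serpina3n, Cd44, Osmr, Aspg, Timp1 and Lcn2 all overlapped between the groups, and their log2 fold changes ran between -0.24 for Timp1 and 1.69 for Lcn2.

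Among the A1-type genes, 5 of 6 tested members were above 0, and in 4 the mutant vehicle libraries were all higher, beside 15.3% of all tested genes. Fbln5, which encodes the elastic fibre protein fibulin 5, had 6.43, 7.51 and 6.57 CPM in mutant vehicle, against 3.63, 4.24 and 3.39 CPM in control vehicle (0.86 ± 0.24, SE, edgeR adjusted p = 0.16). Iigp1, an interferon-inducible GTPase gene, had 4.38, 4.78 and 4.29 CPM in mutant vehicle, against 3.16, 2.9 and 2.97 CPM in control vehicle (0.57 ± 0.16, edgeR adjusted p = 0.16). Srgn, which encodes the proteoglycan serglycin, had 5.01, 4.70 and 6.06 CPM in mutant vehicle and 4.0, 4.16 and 4.24 CPM in control vehicle (0.35 ± 0.12, edgeR adjusted p = 0.18). For each of these 3 genes the lowest mutant vehicle library was above the highest control vehicle library. Fbln5 and Iigp1 passed under DESeq2 (adjusted p = 0.022 and 0.038) and in the edgeR fit of these 6 libraries alone (adjusted p = 0.018 and 0.047). Over all alternatives their adjusted p ran from 0.018 to 0.99 and from 0.038 to 0.99. Counts of Iigp1, H2-T23, Serpina3n and Ugt1a1 are uncertain, because near-identical copies can share reads. Other members were not free of shared reads. Expected counts were not whole numbers in 12 libraries for H2-T23, 11 for Gfap, 10 for Stat3 and 7 for Ugt1a1. The same held in 6 libraries each for Vim and Serpina3n and in 3 for Iigp1.

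Among the A2-type genes, 7 of 8 tested members were above 0, and in 2 the mutant vehicle libraries were all higher, beside 15.3% of all tested genes. Emp1, an epithelial membrane protein gene, had 3.31, 2.73 and 5.20 CPM in mutant vehicle, against 2.71, 1.64 and 1.89 CPM in control vehicle (0.85 ± 0.26, SE, edgeR adjusted p = 0.17). Its lowest mutant vehicle library was barely above the highest control one. Tm4sf1, a tetraspanin-like gene strong in endothelium, was the other (0.53 ± 0.22, edgeR adjusted p = 0.25). The pentraxin gene Ptx3 (0.12), Cd14 (0.05) and S100a10 (-0.07) overlapped between the groups.

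**Figure D3:**
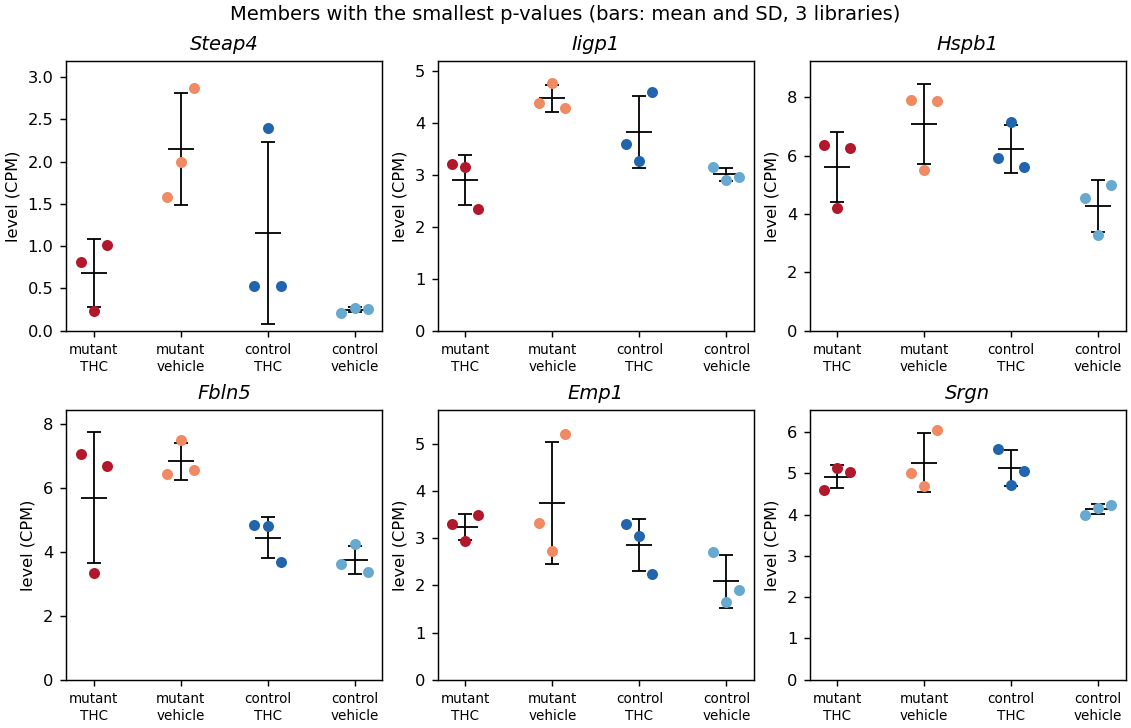
Levels (CPM, linear axis from 0) of Steap4, Iigp1, Hspb1, Fbln5, Emp1 and Srgn in each of the 12 libraries, with the mean and SD of the 3 libraries of each group as bars. In all 6 genes the mutant vehicle libraries lie above the control vehicle libraries, and the THC groups of both genotypes overlap for each gene except Iigp1.

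The STAT3 axis differed little in this comparison. Stat3 itself had 67.9, 60.6 and 61.2 CPM in mutant vehicle, against 56.8, 62.4 and 56.3 CPM in control vehicle (0.11 ± 0.09, SE, edgeR adjusted p = 0.53). Socs3 had 1.63, 2.11 and 1.88 CPM in mutant vehicle and 1.58, 1.24 and 1.5 CPM in control vehicle (0.38 ± 0.30, edgeR adjusted p = 0.53). Those of Socs3 did not overlap, while those of Stat3 did. Cebpd, a transcription factor gene downstream of STAT3, had 33.6, 26.8 and 21.7 CPM in mutant vehicle and 26.2, 27.7 and 20.1 CPM in control vehicle (0.15 ± 0.21, edgeR adjusted p = 0.74). Osmr, the oncostatin M receptor subunit that pairs with gp130, had 5.96, 7.05 and 6.95 CPM in mutant vehicle and 5.92, 7.31 and 7.34 CPM in control vehicle (-0.04 ± 0.15, edgeR adjusted p = 0.90). For Cebpd and Osmr the groups overlapped.

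Marker lists of other cells and tissues leaned to one side between mutant and control vehicle as well, and none of their genes passed the threshold. All 14 choroid plexus markers were above 0, with a median log2 fold change of 5.51, and all 10 meningeal fibroblast markers were above 0, with a median of 0.83, while the median of 14 astrocyte markers was 0.07. Of the other lists, 6 of 6 ependymal markers were above 0 (median 1.16), as were 5 of 5 blood markers (0.79) and 8 of 8 oligodendrocyte (0.33) and 8 of 8 striatal markers (1.34), while 7 of 8 neuron markers were below 0 (-0.19). The part of these 5 lists in the member values was not tested. The choroid plexus score was 5.05 to 6.73 in mutant vehicle and 0.42 to 1.51 in control vehicle. The meningeal score was 3.90 to 4.82 and 3.39 to 3.67. Neither score overlapped between these groups, so genotype and score cannot be fully told apart in the covariate fits of this comparison. With the choroid plexus score as a covariate the log2 fold changes were 0.48 ± 0.16 for Vim, 0.77 ± 0.23 for Iigp1 and 0.31 ± 0.29 for Fbln5. With the meningeal fibroblast score they were 0.43 ± 0.13 for Vim, 0.41 ± 0.19 for Iigp1, 0.92 ± 0.30 for Fbln5 and 3.71 ± 0.77 for Steap4, and that of Gfap turned to -0.15 ± 0.11. Of the 29 members, 22 were above 0 and 7 below with the choroid plexus score, and 17 above and 12 below with the meningeal score. In each fit an unadjusted p under 0.05 (edgeR) was reached by 7 members with higher levels and 0 with lower levels. Of the 15802 tested genes, 606 reached it in either direction with the choroid plexus score and 2752 with the meningeal score. The same number of members thus stands beside very different backgrounds. No member passed the threshold in either of these fits.

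**Figure D4:**
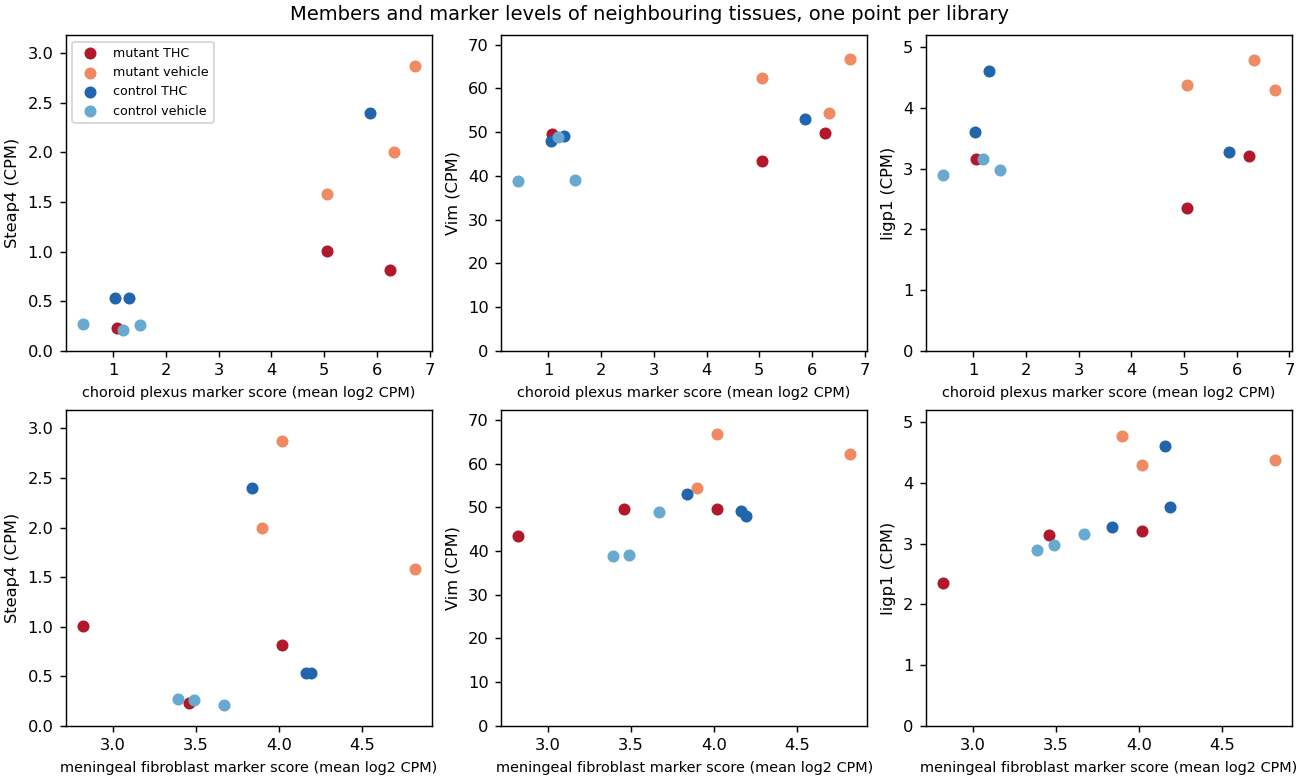
Levels of Steap4, Vim and Iigp1 (columns, CPM) against the choroid plexus score (upper row) and the meningeal fibroblast score (lower row), the mean log2 CPM of each marker list; each point is 1 of the 12 libraries, coloured by group. Steap4 is at 0.811 CPM or more in the 6 libraries with a high choroid plexus score and at 0.533 CPM or less in the other 6, while Iigp1 is at 3.27 and 4.60 CPM in control THC libraries on either side.

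Control THC was compared with control vehicle for the effect of THC without the mutation. Of 29 tested members 23 were above 0, with a median of 0.25 against 0.00 over all genes. For 6 members (20.7%) every control THC library was above every control vehicle library, beside 8.30% of all genes, and for 1 every library was below (3.45%, beside 8.07%). The 6 were Steap4, Srgn, Hspb1, Nes, Iigp1 and Serpina3n, and the 1 was Gfap. An unadjusted p under 0.05 was reached by 5 members with higher levels (17.2%, beside 3.55%) and 1 with lower levels (3.45%, beside 3.45%).

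Steap4 was at 0.530, 2.40 and 0.533 CPM in control THC, against 0.211 to 0.269 CPM in control vehicle (2.23 ± 0.69, SE, edgeR adjusted p = 0.70). Most of this mean came from 1 library, control THC 2, where Ttr was at 5090 CPM against 48.5 and 54.3 CPM in the other control THC libraries. Without that library the log2 fold change was 1.10. Srgn was at 5.60, 4.73 and 5.05 CPM in control THC, above its 4.0 to 4.24 CPM in control vehicle (0.31 ± 0.12, edgeR adjusted p = 0.70). Hspb1 was at 5.91, 7.16 and 5.61 CPM in control THC, above its 3.28 to 4.99 CPM in control vehicle (0.54 ± 0.21, edgeR adjusted p = 0.70).

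The 3 filament genes did not go the same way under THC in controls. Nes was at 16.4, 15 and 16.0 CPM in control THC, against 11.5 to 14.1 CPM in control vehicle, without overlap (0.26 ± 0.10, SE, edgeR adjusted p = 0.70). Vim was at 48 to 53.1 CPM in control THC and 38.8 to 48.8 CPM in control vehicle, with overlap (0.25 ± 0.10, edgeR adjusted p = 0.70). Gfap was at 384, 377 and 411 CPM in control THC, against 414 to 471 CPM in control vehicle, so that all 3 control THC libraries were lower (-0.18 ± 0.15, edgeR adjusted p = 0.82). With the meningeal score as a covariate the log2 fold change of Gfap was -0.42 ± 0.10 (edgeR adjusted p = 0.68), and with the choroid plexus score -0.14 ± 0.16. Serpina3n, a secreted protease inhibitor and one of the most abundant members, was at 48.6, 46.5 and 61.1 CPM in control THC and 36.2, 44.5 and 42.8 CPM in control vehicle (0.34 ± 0.23, edgeR adjusted p = 0.77). Choroid plexus markers had a median log2 fold change of 3.50 in this comparison, with 14 of 14 above 0, and meningeal markers one of 0.67, with 10 of 10 above 0. Astrocyte markers were below 0 in 11 of 14, with a median of -0.14. For 5 of them every control THC library was below every control vehicle library, beside 8.07% of all genes. Oligodendrocyte markers were below 0 in 8 of 8 (-0.25), while 6 of 6 ependymal (0.29) and 5 of 5 blood markers (0.45) were above 0. The part of these further lists in the member values was not tested.

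STAT3 axis genes overlapped between the control groups. Stat3 was at 56.3, 59.2 and 70.1 CPM in control THC, and Cebpd, highest in the same library, at 27.4, 26.5 and 37.2 CPM. Socs3 was at 1.48, 2.26 and 0.925 CPM, with its lowest value in that library. Osmr was at 7.36, 6.53 and 6.28 CPM. Their log2 fold changes ran between -0.03 for Osmr and 0.30 for Cebpd. The library control THC 3 was the highest of all 12 for 7 members: S1pr3, Serpina3n, H2-T23, Amigo2, Cd109, Stat3 and Cebpd.

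Mutant THC was compared with mutant vehicle for the effect of THC in mutants, and the values leaned the other way. Only 5 of 29 tested members were above 0 and 24 were below, with a median of -0.21 against -0.01 over all genes. For 5 members (17.2%) every mutant THC library was below every mutant vehicle library, beside 4.40% of all genes, and for 0 members every library was above, beside 4.07%. The 5 were Iigp1, Vim, Steap4, Aspg and H2-T23. An unadjusted p under 0.05 was reached by 5 members with lower levels (17.2%, beside 3.20%) and by 0 with higher levels (beside 2.53%).

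Iigp1 was at 3.21, 3.15 and 2.35 CPM in mutant THC, against 4.38, 4.78 and 4.29 CPM in mutant vehicle (-0.63 ± 0.16, SE, edgeR adjusted p = 0.81). The mutant THC libraries were near or below the 2.9 to 3.16 CPM of control vehicle. Vim was at 43.4 to 49.7 CPM in mutant THC and 54.3 to 66.7 CPM in mutant vehicle (-0.36 ± 0.10, edgeR adjusted p = 0.81). Steap4 was at 0.811, 0.227 and 1.01 CPM in mutant THC, against 1.58 to 2.87 CPM in mutant vehicle (-1.65 ± 0.62, edgeR adjusted p = 0.81), and its lowest library, mutant THC 2, was also the one with Ttr at 34.0 CPM. Gfap was at 469, 432 and 285 CPM in mutant THC, against 463 to 551 CPM in mutant vehicle, with overlap (-0.34 ± 0.15, edgeR adjusted p = 0.81).

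The lowest Gfap value belonged to mutant THC 3, the library with striatal Drd2. Without it the log2 fold change of Gfap was -0.15, and that of Iigp1 was -0.49. Mutant THC 3 was the lowest of the 12 libraries for 10 of the 29 tested members and control vehicle 2 for 8, so that these 2 libraries held 18 of the 29 minima. With mutant THC 3 and mutant vehicle 3 both left out, a setting chosen after seeing the data, the member median was -0.10. Meningeal markers had a median of -0.72 in this comparison, with 10 of 10 below 0, and choroid plexus markers one of -0.99, with 14 of 14 below 0. Astrocyte markers leaned the same way, with 13 of 14 below 0 and a median of -0.09. So did 8 of 8 oligodendrocyte (-0.08), 6 of 6 ependymal (-0.30) and 5 of 5 blood markers (-0.09), while 8 of 8 striatal markers were above 0 (2.57). The part of these further lists in the member values was not tested. With the meningeal score as a covariate the log2 fold changes were -0.45 ± 0.20 for Iigp1, -0.25 ± 0.13 for Vim, -0.01 ± 0.11 for Gfap and -2.33 ± 0.76 for Steap4, and the member median was -0.04. With the choroid plexus score they were -0.70 ± 0.17 for Iigp1, -0.34 ± 0.12 for Vim, -0.38 ± 0.16 for Gfap and -1.01 ± 0.26 for Steap4.

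Mutant THC was compared with control THC for the genotype difference under THC. Here 11 of 29 tested members were above 0 and 18 below, with a median of -0.07 against 0.01 over all genes. For 0 members was every mutant THC library above every control THC library (beside 4.83% of all genes), and for 1 every library was below (3.45%, beside 5.70%). That member was Iigp1, at 2.35 to 3.21 CPM in mutant THC and 3.60, 3.27 and 4.60 CPM in control THC (-0.39 ± 0.16, SE, edgeR adjusted p = 0.55). An unadjusted p under 0.05 was reached by 1 member with higher levels (3.45%, beside 4.71%) and by 3 with lower levels (10.3%, beside 4.27%).

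Without control THC 3 the log2 fold change of Iigp1 was -0.24, and without mutant THC 3 it was -0.26. The differences of Amigo2 and Sphk1 also depended on 1 control THC library each. Amigo2, an immunoglobulin-domain adhesion gene, was at 26, 34.3 and 22.2 CPM in mutant THC and 29.5, 37.8 and 52.0 CPM in control THC (-0.53 ± 0.21, SE, edgeR adjusted p = 0.55). Without control THC 3 its log2 fold change was -0.29. Sphk1, the kinase gene that makes sphingosine 1-phosphate, was at 1.41, 1.11 and 0.645 CPM in mutant THC and 4.26, 1.32 and 1.79 CPM in control THC (-1.22 ± 0.50, edgeR adjusted p = 0.55). Without control THC 1 it was -0.57. S1pr3, a receptor gene for that lipid, had a log2 fold change of -0.18. S100a10, the annexin partner p11, was at 18.2, 13.8 and 17.9 CPM in mutant THC and 15.6, 12.2 and 10.1 CPM in control THC (0.40 ± 0.18, edgeR adjusted p = 0.55). All 3 of Amigo2, Sphk1 and S100a10 overlapped between the groups. In the vehicle groups Amigo2 was at 33.9, 37.4 and 33.6 CPM in mutants and 25.6, 35.9 and 31.9 CPM in controls. There Sphk1 was at 3.26, 1.40 and 1.32 CPM in mutants and 1.92, 1.8 and 1.34 CPM in controls. S100a10 was at 17.0, 15.8 and 14.5 CPM in mutant vehicle and 19.8, 13.9 and 15.9 CPM in control vehicle. The vehicle groups overlapped for all 3 genes.

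For Gfap, Vim and Nes the genotypes overlapped under THC, with log2 fold changes of 0.02 ± 0.15, -0.07 ± 0.10 and -0.07 ± 0.10 (SE, edgeR adjusted p = 0.97, 0.81 and 0.80). Nes was at 13, 15.9 and 16.0 CPM in mutant THC. In the same group Stat3 was at 54.8, 62.2 and 60.6 CPM, and its feedback inhibitor Socs3 at 1.83, 1.11 and 1.26 CPM. The mutant THC library with the highest Socs3 was the one with the lowest Stat3, which rests on 1 library, and a relation between them was not tested. Cebpd was at 20.4, 28.6 and 18.2 CPM, and Osmr at 7.72, 5.88 and 5.21 CPM. Each of these 4 overlapped with control THC, and the largest difference was that of Cebpd, -0.44 ± 0.21 (edgeR adjusted p = 0.55).

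The marker lists of other cells also leaned to one side between mutant and control THC. All 8 striatal markers were above 0, with a median log2 fold change of 3.61, and all 8 oligodendrocyte markers were above 0, with a median of 0.51. Meningeal markers were below 0 in 9 of 10, with a median of -0.56, and 14 of 14 choroid plexus markers were above 0, with a median of 0.81. None of these markers passed the threshold of edgeR. With the meningeal score as a covariate the log2 fold change was -0.25 ± 0.18 for Iigp1 and 0.26 ± 0.11 for Gfap, and with the choroid plexus score -0.34 ± 0.16 and 0.05 ± 0.16. The part of the striatal and oligodendrocyte markers in the member values was not tested.

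Mutant THC was also compared with control vehicle, the pair of groups that differ in both factors. Members divided evenly, with 16 above 0 and 13 below and a median of 0.02 against 0.01 over all genes. For 2 members (6.90%) every mutant THC library was above every control vehicle library, beside 8.59% of all genes, and for 0 every library was below, beside 8.94%. An unadjusted p under 0.05 was reached by 2 members (6.90%, beside 14.1%), both with higher levels.

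Emp1 was at 3.30, 2.93 and 3.48 CPM in mutant THC, against 1.64 to 2.71 CPM in control vehicle, without overlap (0.64 ± 0.26, SE, edgeR adjusted p = 0.34). In control THC it was at 3.29, 3.05 and 2.24 CPM. Srgn was at 4.60, 5.12 and 5.03 CPM in mutant THC, against 4.0 to 4.24 CPM in control vehicle, also without overlap (log2 fold change 0.25). Fbln5 was at 7.06, 3.35 and 6.69 CPM in mutant THC, and mutant THC 2 lay below all 3 control vehicle libraries (0.60 ± 0.24, edgeR adjusted p = 0.34). In control THC Fbln5 was at 4.85, 4.80 and 3.70 CPM. Steap4 had a log2 fold change of 1.46 ± 0.72 against control vehicle, and -0.08 ± 0.39 with the choroid plexus score as a covariate. With that score Fbln5 had 0.21 ± 0.25, and with the meningeal score 0.60 ± 0.25. All 14 choroid plexus markers were above 0 here, with a median of 4.43, and all 8 striatal markers, with a median of 3.52. So were 9 of 10 endothelial (0.20), 5 of 5 blood (0.68), 6 of 6 ependymal (0.86) and 8 of 8 oligodendrocyte markers (0.26). Meningeal markers were below 0 in 7 of 10 (-0.05). The part of the striatal, endothelial, blood, ependymal and oligodendrocyte lists in the member values was not tested.

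The interaction asks whether THC did something different in mutants than in controls. Of the 29 tested members 23 were below 0 and 6 above, with a median of -0.42 against 0.00 over all genes. An unadjusted p under 0.05 was reached by 7 members below 0 (24.1%, beside 4.42% of all genes) and by 0 above 0 (beside 2.16%). The interaction is computed from the same 4 group means as the comparisons above, so this is the same pattern in one number and not further evidence for it. With the meningeal score as a covariate 19 members were below 0 and 10 above. An unadjusted p under 0.05 (edgeR) was then reached by 1 member below 0 and 1 above, beside 755 of the 15802 tested genes in either direction. With the choroid plexus score 21 members were below 0 and 8 above, and 10 and 0 of them reached it. Of the 15802 tested genes 1225 did so in either direction.

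The smallest p-values in the interaction belonged to Iigp1 (-0.97 ± 0.23, SE), Steap4 (-3.88 ± 0.93) and Vim (-0.61 ± 0.15), each with an edgeR adjusted p of 0.54. Hspb1 followed with -0.88 ± 0.30 (edgeR adjusted p = 0.69), and was at 6.37, 4.21 and 6.25 CPM in mutant THC. For Iigp1 the mean was 2.91 ± 0.483 CPM in mutant THC, 4.48 ± 0.262 CPM in mutant vehicle, 3.82 ± 0.693 CPM in control THC and 3.01 ± 0.133 CPM in control vehicle (SD, n = 3 each). For Vim it was 47.6 ± 3.62, 61.1 ± 6.29, 50.1 ± 2.65 and 42.2 ± 5.67 CPM in the same groups. Both genes were thus highest in mutant vehicle, with the level in mutant THC close to that of control vehicle for Iigp1 and between those of the control groups for Vim. By group mean, 15 of the 29 tested members were highest in mutant vehicle, 8 in control THC, 4 in mutant THC and 2 in control vehicle.

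DESeq2 passed 1 member in the interaction, Steap4 (-3.89 ± 0.94, adjusted p = 0.024, range over all alternatives 0.024 to 1.0), among 34 genes (0.216% of those tested, 0.209% below 0 and 0.00635% above). With the choroid plexus score as a covariate in edgeR, the interaction was -1.11 ± 0.25 for Iigp1, -2.13 ± 0.44 for Steap4 and -0.57 ± 0.17 for Vim. With the meningeal score it was -0.66 ± 0.30, -4.96 ± 1.17 and -0.42 ± 0.20 for the same genes, and the member median was -0.22. Iigp1 and Steap4 were the 2 members (6.90% of 29) in which THC groups lay beyond vehicle groups in opposite directions in the 2 genotypes, beside 0.747% of all tested genes. Iigp1 was also the 1 member (3.45%) in which the genotypes did so under THC and under vehicle, beside 0.525%. Marker lists leaned both ways in the interaction. Every marker was below 0 in the meningeal (median -1.36), choroid plexus (-4.56), ependymal (-0.59) and blood (-0.58) lists. Every marker was above 0 in the striatal (2.66) and oligodendrocyte (0.16) lists. Astrocyte markers were above 0 in 11 of 14 (0.07) and microglia markers in 9 of 10 (0.06). Medians of the neuron, endothelial and mural lists were 0.08, -0.05 and -0.08.

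**Figure D5:**
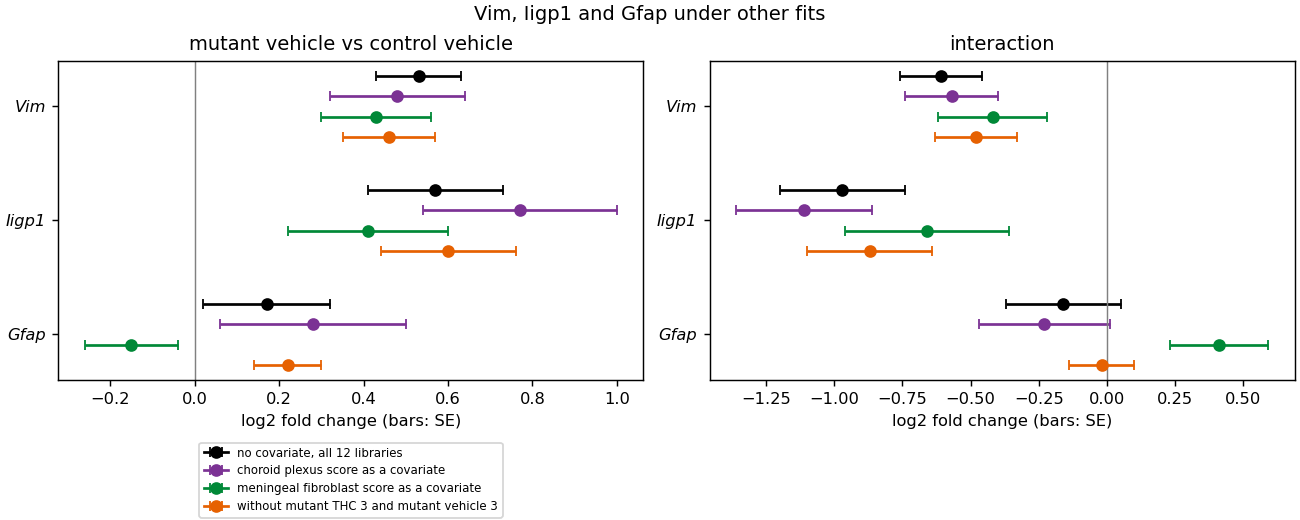
Log2 fold changes with SE bars of Vim, Iigp1 and Gfap between mutant and control vehicle (left) and in the interaction (right), under 4 fits named in the legend. Vim and Iigp1 keep their sign in all 4 fits, while Gfap between mutant and control vehicle is 0.17 without a covariate and -0.15 with the meningeal score.

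Pathway genes around the members were read from further lists. Of 8 genes of the published signatures that are not members, 7 were above 0 between mutant and control vehicle, beside 48.9% of all tested genes. The 1 below 0 was Ptgs2 (-0.05). Between control THC and control vehicle, which shares the control vehicle libraries, 7 of the 8 were above 0 too. There 4 were higher without overlap, beside 8.30% of all genes. In the interaction all 8 were below 0, where 51.3% of all tested genes were above 0. No gene passed the threshold (edgeR). The interaction holds the same group means, so it is not further evidence. Between mutant and control vehicle Cp, which encodes ceruloplasmin, had a log2 fold change of 0.73 ± 0.12 (SE), Serping1, the C1 inhibitor gene, 0.81 ± 0.19, and the guanylate-binding protein gene Gbp2 0.48 ± 0.11. In the interaction these genes had -0.97 ± 0.17, -1.43 ± 0.27 and -0.64 ± 0.16. The edgeR adjusted p was 0.16 for each in the first comparison, and 0.48, 0.48 and 0.54 in the interaction. The part of the choroid plexus and meningeal markers in the values of these genes was not tested.

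Of the 24 listed genes of the gp130 and JAK-STAT pathway 21 were tested, and 0 passed the edgeR threshold in any comparison. Between mutant and control vehicle 9 were above 0 and 12 below, with a median of -0.03. The smallest p-values there were those of 3 receptor genes, Il11ra1 with 0.50 ± 0.10 (SE), Il6st, which encodes gp130, with 0.25 ± 0.06, and Il6ra with 0.32 ± 0.13 (edgeR adjusted p = 0.16, 0.16 and 0.26). Receptor genes of the same list did not all go this way, with -0.07 ± 0.10 for Lifr and -0.01 ± 0.14 for Cntfr. Il6st was at 133, 135 and 140 CPM in mutant vehicle, against 114 CPM in each control vehicle library, so these groups did not overlap. It was at 130, 115 and 117 CPM in mutant THC and 114, 128 and 129 CPM in control THC. The only other gene of the list with an unadjusted p under 0.05 there was the target gene Junb (-0.27 ± 0.12, edgeR adjusted p = 0.27). Of the 21 tested genes, 3 thus reached it with higher levels (beside 11.2% of all genes) and 1 with lower levels (beside 6.63%).

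Of 12 listed inducers of reactive astrocytes and their receptors 11 were tested, and 0 passed the edgeR threshold in any comparison. Between mutant and control vehicle 10 of the 11 were above 0, with a median of 0.14, and 3 of these had an unadjusted p under 0.05 (beside 11.2% of all genes). The receptor genes Tnfrsf1a (0.50 ± 0.12, SE) and Tgfbr2 (0.49 ± 0.11) were among them, and Il1a, the cytokine gene interleukin 1 alpha, was the 1 gene below 0 (-0.49 ± 0.20; edgeR adjusted p = 0.16, 0.16 and 0.24). Tnfrsf1a was at 7.03, 5.71 and 5.91 CPM in mutant THC, 7.61, 7.97 and 7.51 CPM in mutant vehicle and 6.44, 7.47 and 6.84 CPM in control THC, against 5.69, 5.96 and 4.68 CPM in control vehicle. Its mutant vehicle libraries were the 3 highest of the 12. Il1a was at 0.601, 0.739 and 0.542 CPM in mutant THC, 0.578, 0.648 and 0.609 CPM in mutant vehicle, and 0.502, 0.408 and 0.505 CPM in control THC, against 0.948, 0.806 and 0.827 CPM in control vehicle. For Il1a the control vehicle libraries were the 3 highest of the 12. The difference between control THC and control vehicle was -0.87 ± 0.21 (edgeR adjusted p = 0.70).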

How the data were processed

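The expected counts per gene were deposited by the authors as 1 unscaled table, RSEM output on RefSeq transcripts per the file headers. Bowtie2 2.2.2, RSEM 1.2.21, edgeR 3.10.2, CASAVA 1.8.4 and FastQC, and the build mm10, are listed in the submitters' processing notes. The sources used here do not say whether strand was used. Symbols came from RefSeq for 23011 rows and GENCODE for 129; 7 rows held several and 235, with 0.727% of counts, had none. RSEM shares ambiguous reads between genes, and 27.2% to 29.4% of values per library were not whole numbers. Expected counts were rounded, filtered with filterByExpr, scaled by TMM and tested with the quasi-likelihood test of edgeR 4.0.16 (R 4.3.3) in 1 model of 4 group means with 8 residual degrees of freedom. Interaction means the THC difference in mutants minus that in controls. Promoter windows and coordinates are those of RefSeq GRCm38.p6, and transcript lengths those of GENCODE M21.

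Alternatives were DESeq2 1.42.0, limma-voom (limma 3.58.1), other size factors, other filters, a fit of only the compared groups, marker scores as covariates, and each library left out. A marker score is the mean log2 CPM of a list, with a prior count of 2. Values in every library are given for the filament and STAT3 axis genes and for the 4 tested members with the smallest p in each comparison. Other members are given by range, or as examples chosen after their values were seen. Members and lists were chosen with earlier results of these data known. The code was tested on simulated data with known fold changes. Library numbers in a group follow accession order and pair nothing.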

Additional observations from a re-analysis of the deposited data

Results flagged for a closer look

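For 2 members (6.90% of the 29 tested) the libraries moved under THC in opposite directions in the 2 genotypes, without overlap, beside 0.747% of all tested genes. Steap4 was lower in all 3 mutant THC libraries than in mutant vehicle, and higher in all 3 control THC libraries than in control vehicle; the difference between these THC effects, the interaction, was -3.88 ± 0.93 on the log2 scale (SE, edgeR adjusted p = 0.54). Choroid plexus markers had log2 medians of -0.99 and 3.50 in the same comparisons. Iigp1 was lower under THC in mutants and higher in controls, again without overlap, and it was lower in mutants than in controls under THC and higher under vehicle, which 0.525% of all tested genes did in either direction. Its interaction was -0.97 ± 0.23 (edgeR adjusted p = 0.54), and without control THC 3 it was -0.81. Neither interaction passed the threshold with edgeR, and that of Steap4 passed with DESeq2 (adjusted p = 0.024, range over all alternatives 0.024 to 1.0), while that of Iigp1 ranged from 0.060 with DESeq2 to 1.0.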

How the results depend on the processing

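Among the values of single named members under alternatives, 615 kept their direction and side of the threshold, 9 newly passed it and 11 reversed. The number of members past the threshold was 0 in all 6 comparisons except 5 (DESeq2) and 4 (only the groups compared) between mutant and control vehicle and 1 (DESeq2) in the interaction; leaving out any 1 library gave 0 throughout. Over all genes, DESeq2 passed 788 between mutant and control vehicle, 7 between mutant and control THC, 12 between control THC and control vehicle, 3 between mutant THC and mutant vehicle, 167 between mutant THC and control vehicle and 34 in the interaction. The fit of only the groups compared passed 523, 0 and 0 between mutant and control vehicle, mutant and control THC, and mutant THC and control vehicle; limma-voom, and leaving out mutant THC 3 and mutant vehicle 3 together, passed 0 in these 3. The choroid plexus covariate passed 0 between mutant and control vehicle and between mutant THC and control vehicle, and the meningeal covariate 0 in the first. With 1 library left out the counts ran from 0 to 6 between mutant and control vehicle, 0 to 2 between mutant and control THC, 0 to 3 between mutant THC and mutant vehicle, 0 to 1 between mutant THC and control vehicle and 0 to 10 in the interaction (10 without mutant THC 1). The cause was not tested. The member median was 0.30 between mutant and control vehicle with the choroid plexus covariate. With the meningeal covariate it was 0.12 between control THC and control vehicle, -0.04 between mutant THC and mutant vehicle and -0.22 in the interaction. Without mutant THC 3 and mutant vehicle 3 it was -0.10 between mutant THC and mutant vehicle and -0.31 in the interaction. With 1 library left out it was 0.15 to 0.25 between mutant and control vehicle, 0.14 to 0.25 between control THC and control vehicle, -0.26 to -0.15 between mutant THC and mutant vehicle, -0.11 to -0.03 between mutant and control THC, -0.03 to 0.08 between mutant THC and control vehicle and -0.45 to -0.36 in the interaction. Gfap reversed most often: -0.15 between mutant and control vehicle and 0.41 in the interaction with the meningeal covariate, -0.01 between mutant and control THC with limma-voom and -0.12 to 0.20 with 1 library left out. Between mutant THC and control vehicle it was 0.03 without mutant THC 3 (range -0.30 to 0.03) and 0.02 without mutant THC 3 and mutant vehicle 3, and in the interaction 0.03 without mutant THC 3 (range -0.30 to 0.03). Vim between mutant and control THC was 0.01 with the meningeal covariate, and Steap4 between mutant THC and control vehicle -0.08 with the choroid plexus covariate. Depth limited Lcn2, Timp1 and the 4 untested members. No paired analysis was possible because the labels give the groups no shared replicate numbers.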

Other observations

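Filament-associated genes and the cells that send inducing signals were also read. Of 5 listed filament partners (Synm, Des, Plec, Dst and Lmna), 3 were above 0 between mutant and control vehicle, with a median log2 fold change of 0.07, and none passed the threshold of edgeR in any comparison. Their summed level was 1105 to 1264 CPM in mutant THC, 1091 to 1203 CPM in mutant vehicle, 1011 to 1184 CPM in control THC and 1180 to 1276 CPM in control vehicle. The 10 microglia markers had a median log2 fold change of 0.09 between mutant and control vehicle and 0.14 between mutant and control THC, where all 10 were above 0 and 5 were higher without overlap, beside 4.83% of all tested genes. Their summed level was 449 to 480 CPM in mutant THC, 454 to 473 CPM in mutant vehicle, 401 to 440 CPM in control THC and 399 to 491 CPM in control vehicle. The complement gene C1qa, made by microglia, had a log2 fold change of 0.20 ± 0.07 between mutant and control THC (SE, edgeR adjusted p = 0.55).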
